A study of Mus musculus with 4 samples.

Results

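S100a5, Scgn, Doc2g, Lbp, Th, Reln, Eomes, Tbx21, Omp and Cdhr1 are 10 genes with known expression in the olfactory bulb or its sensory input, and they were followed here across 4 gene arrays of whole mouse brain. They were selected on their signal in Adar2 knockout replicate 2, set against the other 3 arrays, so the low values on that array describe the choice and were not tested. Each gene matched 1 transcript cluster, the group of probes that the array assigns to a transcribed locus, so the 10 genes stand for 10 of 33793 clusters. Brains came from adult female mice of the 129SV strain, 2 wild type and 2 Adar2-/-, with 1 array each. ADAR2, the product of Adarb1, is an RNA editing enzyme that converts adenosine to inosine. Both genotypes carried the pre-edited Gria2 R/R allele, which rescues the lethality of the knockout, so neither group has the editable Gria2 of an ordinary mouse. The mice were siblings. The sample titles name whole brain, and the labels do not say whether each dissection kept the olfactory bulbs.

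The olfactory bulb receives the axons of olfactory sensory neurons from the nasal epithelium. In its glomeruli these axons contact mitral and tufted cells, the glutamatergic projection neurons of the bulb. Periglomerular and granule interneurons shape their output and are renewed throughout life by neuroblasts that migrate forward along the rostral migratory stream. Of the 10 genes, Omp and S100a5 mark mature olfactory sensory neurons, whose axons, but not cell bodies, lie in the bulb. Eomes, Tbx21, Cdhr1 and Reln are expressed by mitral and tufted cells, and Th and Scgn by interneurons of the bulb. Doc2g codes for a protein of the double C2 family, and Lbp for the secreted lipopolysaccharide binding protein. Several of these genes are also used elsewhere in the brain, Th in dopamine and noradrenaline neurons of the midbrain and brainstem, and Reln in cortical interneurons and cerebellar granule cells. In whole-brain RNA, fewer cells of a type and less RNA per cell cannot be told apart.

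The loci of the 10 genes are spread over 9 chromosomes, with Th and Omp both on chromosome 7. Promoter windows of 250 bases before and 50 bases after the gene start were taken from a table of RefSeq promoters (GRCm38.p6), in which 8 of the 10 genes were matched, all but Lbp and Omp. For S100a5 and Scgn the start used by that table lies inside the RefSeq span of the gene (90606480 to 90611784 and 23953456 to 23991327), so their windows are not at its outermost end. The windows below are shown for the genes with the largest differences on Adar2 knockout replicate 2 that have an entry, and for Th as a gene of the same tissue with a small difference. They lie at S100a5 chr3:90608272-90608571 (plus strand), Scgn chr13:23991165-23991464 (minus strand), Doc2g chr19:4003135-4003434 (plus strand), Cdhr1 chr14:37098298-37098597 (minus strand), and Th chr7:142899946-142900245 (minus strand). Capitals mark motifs found on either strand: the EBF motif CCCNNGGG in Doc2g, the cyclic AMP response element TGACGTCA in Th and the CCAAT box, read as its reverse complement, in S100a5 and Cdhr1. The T-box motif GGTGTGA was searched as well, and the motifs found do not overlap.
S100a5: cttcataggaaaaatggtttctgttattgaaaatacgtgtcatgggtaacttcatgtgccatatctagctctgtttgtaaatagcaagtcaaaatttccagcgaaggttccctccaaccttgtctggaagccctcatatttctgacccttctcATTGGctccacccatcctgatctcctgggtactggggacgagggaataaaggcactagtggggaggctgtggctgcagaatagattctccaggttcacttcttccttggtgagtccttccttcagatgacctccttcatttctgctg
Scgn: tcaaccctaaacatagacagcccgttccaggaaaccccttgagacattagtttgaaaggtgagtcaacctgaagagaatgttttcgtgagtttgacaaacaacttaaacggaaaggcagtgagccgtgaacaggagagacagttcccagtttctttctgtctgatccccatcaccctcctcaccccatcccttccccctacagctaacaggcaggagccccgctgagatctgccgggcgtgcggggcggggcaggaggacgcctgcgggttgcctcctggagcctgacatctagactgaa
Doc2g: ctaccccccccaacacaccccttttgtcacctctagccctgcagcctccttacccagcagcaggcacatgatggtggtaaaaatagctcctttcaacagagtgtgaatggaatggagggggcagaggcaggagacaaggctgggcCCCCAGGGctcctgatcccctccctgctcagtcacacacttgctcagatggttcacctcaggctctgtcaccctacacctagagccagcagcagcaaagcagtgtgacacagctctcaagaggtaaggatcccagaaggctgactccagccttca
Cdhr1: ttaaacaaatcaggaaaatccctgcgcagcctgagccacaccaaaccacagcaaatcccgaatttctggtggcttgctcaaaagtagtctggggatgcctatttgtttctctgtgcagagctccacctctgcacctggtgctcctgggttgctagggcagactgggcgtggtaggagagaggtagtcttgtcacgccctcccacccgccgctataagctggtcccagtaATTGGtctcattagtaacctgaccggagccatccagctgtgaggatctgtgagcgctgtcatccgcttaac
Th: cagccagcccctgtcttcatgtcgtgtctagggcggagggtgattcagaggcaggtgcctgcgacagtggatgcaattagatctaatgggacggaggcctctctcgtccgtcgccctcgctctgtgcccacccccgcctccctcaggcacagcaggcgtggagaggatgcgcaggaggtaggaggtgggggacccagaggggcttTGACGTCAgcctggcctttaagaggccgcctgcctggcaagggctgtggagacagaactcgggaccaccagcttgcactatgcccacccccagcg

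The 8 windows shared no motif of the 4 that were searched. EBF factors direct the gene programme of olfactory sensory neurons, and their motif was in 2 of 8 windows, Doc2g and Reln, against 13.7% of all 32851 promoters. The T-box motif, bound by factors of the family of Eomes and Tbx21, was in 0 of 8 windows and in 3.98% of all promoters. The response element of Th was in 1 of 8 windows and in 1.79% of all promoters, and the CCAAT box in 4 of 8, Cdhr1, Eomes, S100a5 and Tbx21, and in 37.4%. A missing match says only that these letters are not in the window. By base composition the 8 windows ranged from 46.3% G and C in S100a5 to 80.7% in Reln, around a median of 52.7% for all promoters. In the annotation of the deposited table, calcium ion binding was listed for 3 of the 10 genes, S100a5, Scgn and Cdhr1, and for 1.68% of all clusters. An olfactory tissue was named as a source of transcripts for 1 of the 10, Omp, and for 3.22% of all clusters.

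The arrays were alike in scale, which largely follows from the quantile normalization in RMA. Median log2 signals were 6.03 and 6.06 in wild type and 6.09 and 6.08 in the knockout, and the correlation across clusters, which are not replicates, was 0.993 to 0.995 for each pair of arrays. Adarb1 was at 10.50 and 10.45 in wild type and at 9.16 and 8.96 in the knockout. The 4 clusters of Y-linked genes, absent from female mice, ranged from 3.49 to 4.40 and give the level of these unexpressed clusters. All 10 genes lay above that range on each array, but the background of other clusters may be higher. S100a5 was at 5.23 on Adar2 knockout replicate 2, where the salivary gene Bpifa2 was at 5.28. Adar2 knockout replicate 1 also stood apart, in salivary genes: Bpifa2 was at 12.61 on it and at 5.09 to 5.28 on the other arrays. Prl, a hormone of the pituitary, was at 6.55 and 4.99 in wild type and at 10.11 and 9.66 in the knockout. Values for the 10 genes are therefore also given without Adar2 knockout replicate 1.

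The genes of the sensory neurons come first. S100a5 (cluster 17399808, chromosome 3, 90608523 to 90611780, plus strand), a small EF-hand calcium binding protein, had log2 signals of 6.69 and 7.33 in wild type, 7.08 in Adar2 knockout replicate 1 and 5.23 in Adar2 knockout replicate 2. The last array was lowest, with a difference of -1.80 from the mean of the other 3, whose SD was 0.32. This is a 3.49-fold lower signal and the largest difference among the 10 genes, ranking 5 of 33793 clusters from the bottom. Its position next to other S100 genes allowed a comparison within the locus. S100a6, the next gene downstream, was at 7.39, 7.41, 7.64 and 7.14 in the same order of arrays, and S100a4, which lies just upstream, at 5.48, 5.98, 5.32 and 5.94. Across the other 16 S100 clusters, not all of them at this locus, the difference of Adar2 knockout replicate 2 ranged from -0.34 to 0.35. Among them S100b, S100g and S100z lie on other chromosomes, and S100a10 and S100a11 farther away on chromosome 3. S100a6 was itself lowest on replicate 2, at -0.34, a far smaller difference than that of S100a5.

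Omp (cluster 17493547, chromosome 7, 98143359 to 98145502, minus strand), a cytoplasmic protein of mature olfactory sensory neurons, was at 6.25 and 5.98 in wild type, 6.14 in Adar2 knockout replicate 1 and 5.56 in replicate 2. The difference of replicate 2 was -0.56 with an SD of 0.14 for the other 3 arrays. Omp lies within the span of Capn5 in RefSeq, and Capn5 had log2 signals of 8.58, 8.62, 8.40 and 8.45. Omp was thus the lowest on Adar2 knockout replicate 2, while Capn5 was not.

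Among genes of mitral and tufted cells the picture was uneven. Cdhr1 (cluster 17305143, chromosome 14, 37077849 to 37098311, minus strand), a cadherin-related membrane protein, had 7.80 and 7.87 in wild type, 7.44 in Adar2 knockout replicate 1 and 6.66 in replicate 2. Each knockout array was lower than either wild-type array, and the difference of replicate 2 from the other 3 was -1.04 (SD of the other 3, 0.23). Eomes (cluster 17522876, chromosome 9, 118478189 to 118486132, plus strand), a T-box transcription factor, had 6.93 and 7.13, then 7.33 and 6.91. Its lowest array was replicate 2, but wild type replicate 1 was only 0.02 higher. Tbx21 (cluster 17268445, chromosome 11, 97098007 to 97115331, minus strand), the other T-box factor, had 6.68 and 6.64, then 6.96 and 6.53. For both factors the array that stood off most was Adar2 knockout replicate 1, which was highest and 0.30 above the wild-type mean in each. Reln (cluster 17445922, chromosome 5, 21884454 to 22344705, minus strand), a large secreted glycoprotein that guides neuronal layering, was at 9.77 and 9.88, then 9.76 and 9.75. Its 2 knockout arrays differed by 0.01, the last digit of the deposited values.

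The interneuron genes also differed from each other. Scgn (cluster 17291260, chromosome 13, 23953456 to 23991214, minus strand), the EF-hand protein secretagogin, was at 6.76 and 6.98 in wild type, 6.98 in Adar2 knockout replicate 1 and 5.80 in replicate 2. The difference of replicate 2 was -1.11, with an SD of 0.13 for the other 3 arrays. Th (cluster 17498171, chromosome 7, 142892752 to 142931128, minus strand), the rate-limiting enzyme of catecholamine synthesis, was at 9.02 and 9.34, then 9.23 and 8.88. Its difference was -0.32, while the wild-type arrays were 0.32 apart. The Th cluster runs past the RefSeq span of the gene, 142892779 to 142899995.

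The remaining genes of the list had clear gaps. Doc2g (cluster 17356070, chromosome 19, 4003336 to 4007005, plus strand) was at 7.74 and 7.92 in wild type, 7.75 in Adar2 knockout replicate 1 and 6.70 in replicate 2. The difference was -1.10 (SD of the other 3, 0.10). Lbp (cluster 17378827, chromosome 2, 158306493 to 158332852, plus strand) was at 8.79, 8.63, 8.83 and 7.68, a difference of -1.07 (SD of the other 3, 0.11). In both genes Adar2 knockout replicate 1 lay within 0.12 of the wild-type mean, so replicate 2 was alone at the low end.

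**Figure D1:**
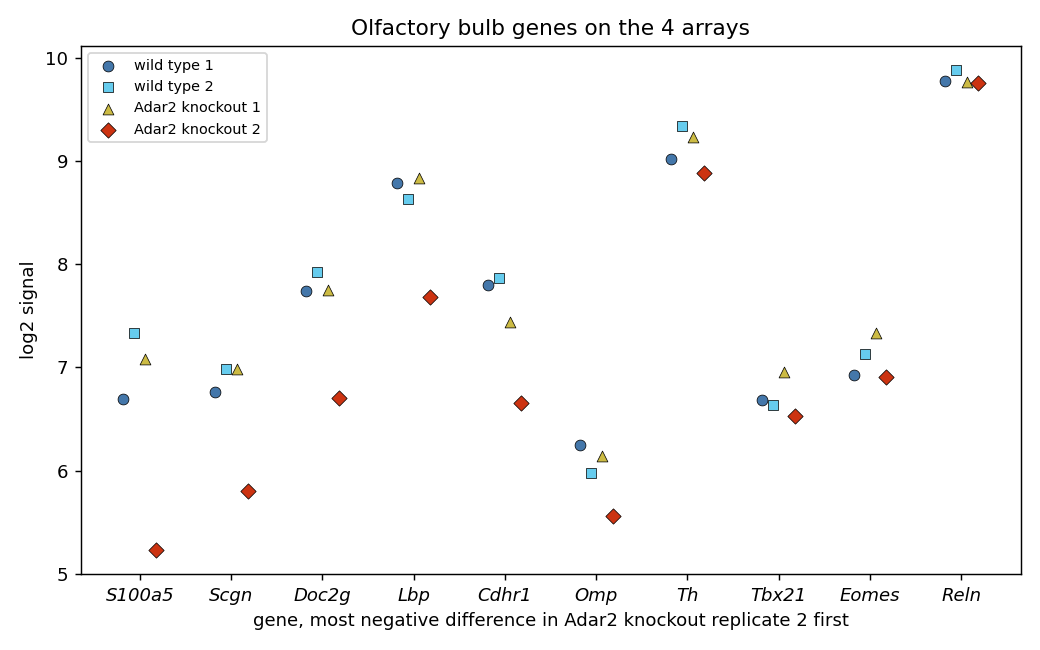
Log2 signal (vertical axis) of the 10 olfactory bulb genes on each of the 4 arrays, 1 point per array, ordered by the difference of Adar2 knockout replicate 2 from the other 3 arrays. In S100a5, Scgn, Doc2g, Lbp and Cdhr1 the red diamond differs from the lowest other array by -1.46 to -0.78, while in Eomes and Reln it touches the rest.

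Set against the whole array, the 10 genes fell into unlike groups. Adar2 knockout replicate 2 lay at least 1 below the mean of the other 3 arrays, a 2-fold difference, for 5 of the 10 genes, S100a5, Scgn, Doc2g, Lbp and Cdhr1. The same held for 0.118% of all clusters, or 40 of 33793. At least 0.5 below were 6 of 10, with Omp, against 1.15% of all clusters. It was the lowest of the 4 arrays for 10 of 10 genes, against 25.9% of all clusters, but by 0.01 in Reln, 0.02 in Eomes, 0.11 in Tbx21 and 0.14 in Th. Nothing is read from these counts, since this contrast chose the genes. The median difference over the 10 genes was -0.80, and over all clusters it was -0.0033 with an SD of 0.21. The description as genes low on 1 array thus holds for 6 of them beyond 0.5, and the other 4 differed by -0.32 to -0.053. Leaving out Adar2 knockout replicate 1 from the comparison left the median at -0.79 and the number at least 1 below at 5. Without wild type replicate 1 or without wild type replicate 2 that number was 4, since Cdhr1 came to lie less than 1 below.

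Clusters that neighbour the 10 genes did not share the low signal. Within 100 kb of them lay 87 other clusters, and the median difference of Adar2 knockout replicate 2 around each gene ranged from -0.088 at Omp to 0.14 at Eomes. None of the 87 was as much as 0.5 below the mean of the other 3 arrays.

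Other genes of the olfactory bulb, from lists that do not hold the 10 genes, were read on the same arrays with 1 value per gene. Of 51 measured genes in 5 lists, 31 had their lowest signal on Adar2 knockout replicate 2, which is 60.8% beside the 25.9% of all clusters, and their median difference was -0.13. At least 0.5 below were 3 of the 51, Dlx5, Sox4 and Frzb, beside 1.15% of all clusters, and none was 1 or more below, beside 0.118%. In 7 lists of other brain regions the lowest signal was on that array for 15 of 77 genes, 19.5%, with a median of -0.0033 and no gene 0.5 or more below. Without Adar2 knockout replicate 1 these counts became 35 of 51 (68.6%) and 32 of 77 (41.6%), against 33.5% of all clusters, and the medians were -0.14 and -0.015. These are descriptions of 1 array, and the difference between the lists was not tested.

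Of the 5 olfactory lists, that of migrating neuroblasts had the lowest median, and bulb interneurons and sensory neurons, whose order turned without wild type replicate 1 (-0.14 and -0.16), came next. Bulb interneuron genes had a median difference of -0.17 over 14 genes, with 10 lowest on Adar2 knockout replicate 2. Dlx5, a homeobox factor of forebrain interneurons, was at 8.43 and 8.37 in wild type and at 8.17 and 7.73 in the knockout. Its partner Dlx6 was at 6.73, 6.91, 6.72 and 6.45. Calb2, the calcium binding protein calretinin, was at 10.38, 10.64, 10.36 and 10.06, and Tpbg, a membrane protein of granule cells, at 9.08, 9.07, 9.08 and 8.74. In each of these replicate 2 was the lowest of the 4 arrays. Gad1 and Gad2, which make the transmitter GABA in interneurons of the entire brain, had differences of -0.033 and 0.06.

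Genes of migrating neuroblasts had a median of -0.28 over 10 genes, with 8 lowest on replicate 2. Sox4, a transcription factor of immature neurons, was at 7.41 and 7.32 in wild type and at 7.20 and 6.67 in the knockout. Ccnd2, a cyclin of dividing precursors, was at 9.90 and 9.69, then 9.37 and 9.27, and Sp9, a zinc finger factor of interneuron precursors, at 6.60 and 6.45, then 6.32 and 6.08. In these 3 genes replicate 1 of the knockout also lay below both wild-type arrays. Igfbpl1 was at 6.25, 6.38, 6.27 and 6.01. The mean log2 signal of the list was 7.86 and 7.76 in wild type, 7.69 in Adar2 knockout replicate 1 and 7.52 in replicate 2, and for bulb interneurons it was 8.69, 8.70, 8.58 and 8.45.

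The lists of sensory neurons, projection neurons and ensheathing glia lay closer to 0. Sensory neuron genes had a median of -0.12 over 12 genes, from -0.30 for Stoml3 to 0.22 for Ncam2, and 7 were lowest on replicate 2. Stoml3, a membrane protein of sensory cilia, was at 6.19, 6.03, 6.09 and 5.80, and Kirrel2, an adhesion molecule that sorts sensory axons, at 7.21, 7.24, 7.33 and 7.00. Cnga2, the defining channel subunit of these neurons, was at 3.91 to 4.01, within the range of the Y-linked genes. Cnga4, another channel subunit, differed by -0.19. Mitral and tufted cell genes had a median of -0.032 over 10 genes, with 4 lowest on replicate 2. Nmb, a peptide of the bombesin family, was at 7.26, 7.37, 7.53 and 6.90, while Spp1, or osteopontin, was highest on replicate 2, at 6.46, 6.76, 6.86 and 7.16. Lhx5 and Slc17a6 differed by -0.24 and 0.15. Ensheathing glia genes had a median of -0.07 over 5 genes, with Frzb, a secreted Wnt inhibitor, at 8.43 and 8.41, then 8.12 and 7.79, and the neurotrophin receptor Ngfr highest on replicate 2 at 6.96 against 6.35 to 6.57. Sox10 and Fabp7 differed by 0.23 and -0.12.

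**Figure D2:**
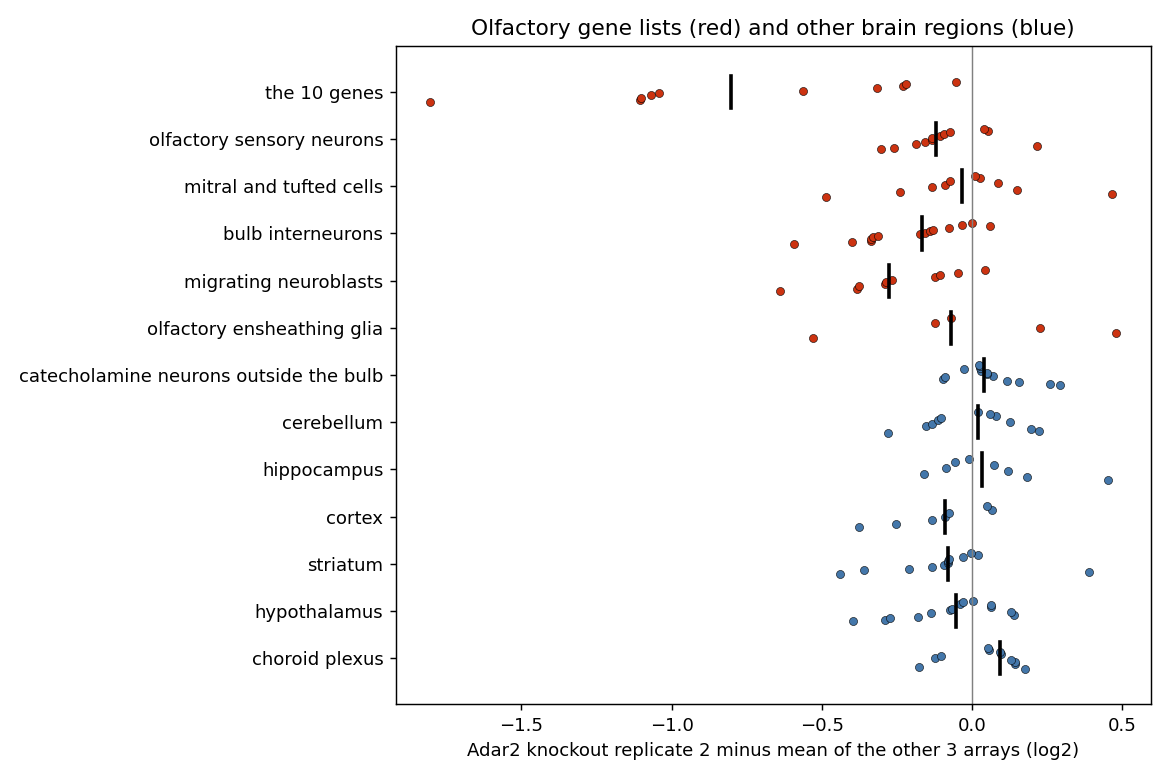
Difference of Adar2 knockout replicate 2 from the mean of the other 3 arrays (horizontal axis, log2), 1 point per gene and a black bar at the median of each list. The 10 genes have a median of -0.80, the lists of bulb interneurons and migrating neuroblasts have medians of -0.17 and -0.28, and the lists of other regions have medians between -0.09 and 0.093, although without Adar2 knockout replicate 1 the median was -0.24 for cortex and -0.20 for bulb interneurons.

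Lists of other tissues and brain regions were read beside these. Catecholamine neurons outside the bulb, which share Th, had a median of 0.04 over 14 genes, and the dopamine transporter Slc6a3 was at 8.58, 8.48, 8.23 and 8.50. En1, Ret and Lmx1b of that list had differences of 0.29, 0.16 and 0.12. Genes of the nasal epithelium, the tissue that houses the sensory neurons, had a median of 0.067 over 8 genes, with a mean log2 signal of 4.29 to 4.43 on the 4 arrays. On no array did 3 of the 8 exceed the Y-linked range, and the only 1 with a mean above 6, Cbr2, had a difference of -0.17. The largest differences were 0.50 for Obp1b and -0.41 for Sec14l3, with 0.29 for Scgb1c1 and 0.23 for Cyp2a5. Medians were 0.02 for cerebellum, 0.032 for hippocampus, -0.09 for cortex, -0.08 for striatum, -0.053 for hypothalamus and 0.093 for choroid plexus. These medians rested on single arrays. With 1 array left out at a time they ranged from -0.055 to 0.09 in cerebellum, -0.023 to 0.065 in hippocampus, -0.24 to -0.005 in cortex, -0.10 to -0.045 in striatum, -0.093 to 0.0025 in hypothalamus and 0.03 to 0.15 in choroid plexus. Taking the mean over all clusters of a gene moved the cerebellum median to -0.082. The lowest value for cortex was without Adar2 knockout replicate 1, where bulb interneurons were at -0.20. The same ranges were 0.043 to 0.068 for catecholamine neurons, 0.025 to 0.15 for nasal epithelium, -0.053 to -0.0025 for mitral and tufted cells and -0.12 to -0.02 for ensheathing glia. Among the larger differences in these were Pcp2 (-0.28), Tdo2 (0.45), Bhlhe22 (-0.38), Rxrg (-0.44), Isl1 (0.39), Rgs9 (-0.36), Trh (-0.40), Gal (-0.29) and Clic6 (0.18). Pituitary genes had a median of 0.14, and salivary genes one of -0.18, which was 0.17 without Adar2 knockout replicate 1. Among genes with a mean signal above 6 they were 1.05 and -1.44. Prl and Gh met that limit through high knockout arrays (Gh 9.95 and 8.36, against 6.3 and 5.68 in wild type). Bpifa2 and Dcpp1 met it only through Adar2 knockout replicate 1, where Dcpp1 was at 10.2 against 5.93 to 5.98 on the other arrays. The value of -1.44 thus describes replicate 1 being high. The part of these differences in the low signals of the 10 genes was not tested.

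Genes like those of the 10 with large gaps were sought among other clusters with a gene symbol. In these the other 3 arrays spanned at most 0.5, averaged at least 6 and all lay above Adar2 knockout replicate 2. Of the 10 genes 9 met these conditions, and S100a5, with a span of 0.64, did not. The measure of likeness was the size of the gap, over 4 arrays, so genes like Th, Tbx21, Eomes and Reln were not sought. Of 5126 clusters that met the conditions, the 20 with the largest gaps ranged from -1.27 to -0.69. The largest belonged to clusters labelled Rpl3 (10.44, 10.26, 10.38 and 9.09) and Ahcy (8.50, 8.23, 8.42 and 7.31), which like Gm8615 and Socs2 have probes that can cross-hybridize with other transcripts. Among the 16 others were 3 cytochrome P450 genes, Cyp4f15 (7.47, 7.64, 7.27 and 6.56), Cyp4f14 (7.04, 7.18, 7.01 and 6.31) and Cyp2d22 (10.22, 10.39, 10.19 and 9.51). Adamts10, a secreted metalloprotease, was at 7.50, 7.51, 7.66 and 6.71. Frmd7, a FERM domain protein known from inherited nystagmus, was at 6.89, 6.94, 6.92 and 6.09. In it the other 3 arrays lay within 0.05 of each other. Ppp1r14c, an inhibitor of protein phosphatase 1, was at 6.58, 6.69, 6.62 and 5.83, and Shisa3, a modulator of Wnt signalling, at 6.92, 7.33, 7.00 and 6.38. The rest were Mir300, 1810020O05Rik, Uqcrb, Fggy, Cdk3-ps, 2700038G22Rik, BC048594, Sp7 and A530058N18Rik, with differences of -0.83 to -0.69. None of the 20 was annotated with calcium ion binding, beside 1.68% of all clusters, and nothing is read from this count.

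**Figure D3:**
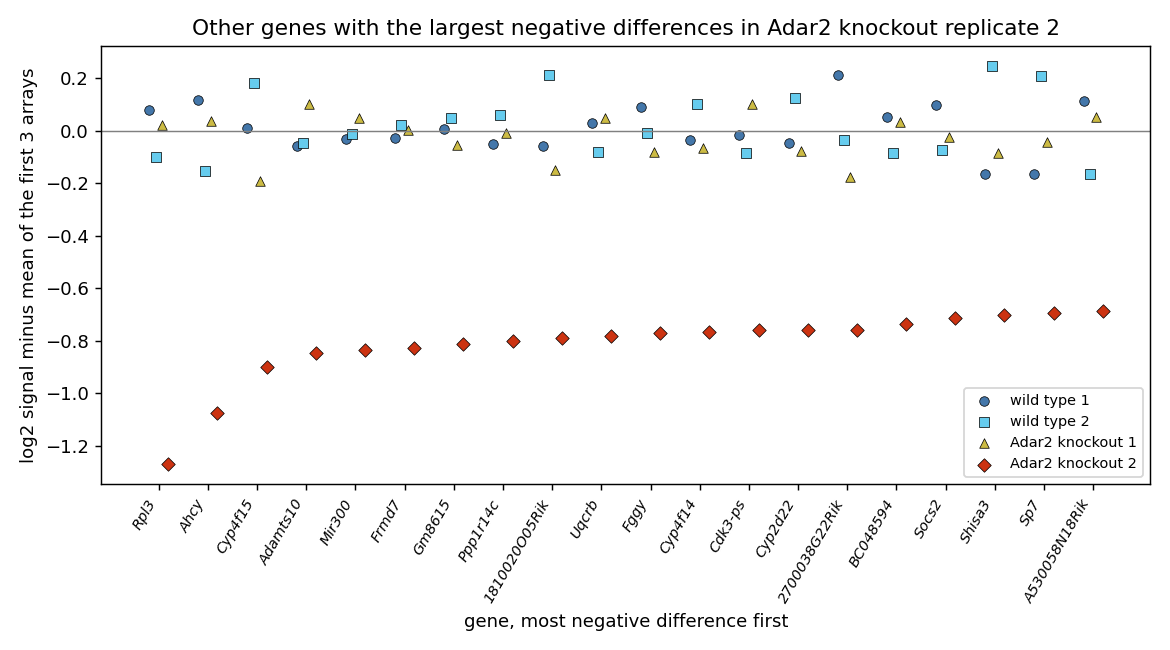
Log2 signal of 20 other genes relative to the mean of both wild-type arrays and Adar2 knockout replicate 1 (vertical axis), 1 point per array. The red diamonds of Adar2 knockout replicate 2 lie between -1.27 and -0.69, and this is the criterion by which the genes were chosen.

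The study's own comparison asks whether transcripts differ between the genotypes. No gene of the 10 passed an adjusted p of 0.05 in limma, where 0% of all clusters did, and adjusted p-values were 0.834 to 0.962. Adarb1, the targeted gene, did not pass either (log2 fold change -1.415, limma p 2.57e-05, adjusted p 0.409), so not passing says little about a gene. The array that chose the genes is part of this contrast, so it is not independent of the choice. At an unadjusted limma p below 0.05 there was 1 of 10, Cdhr1, against 5.95% of all clusters. Cdhr1 averaged 7.84 ± 0.049 in the wild type and 7.05 ± 0.55 in the knockout (SD, n = 2 each), a log2 fold change of -0.79 (SE 0.25, limma p 0.0214, adjusted p 0.834). That unadjusted call was lost when either wild-type array was left out (limma p 0.155 and 0.181), with the replicate number as a block (0.0517) and in the pooled-variance test (0.183). S100a5 averaged 7.01 ± 0.45 and 6.16 ± 1.31 (SD, n = 2 each), a log2 fold change of -0.86 (SE 0.58, limma p 0.195, adjusted p 0.869). For Scgn, Doc2g and Lbp the log2 fold changes were -0.48, -0.61 and -0.46, each with an SE of 0.33 to 0.37. In these 5 genes knockout replicate 2 minus replicate 1 was -1.85 to -0.78, while the wild-type arrays lay 0.07 to 0.64 apart. Omp, Th and Reln had log2 fold changes of -0.27, -0.13 and -0.07, and Eomes and Tbx21 of 0.09 and 0.085, all with unadjusted limma p-values of 0.262 to 0.619. Among the 10 genes the genotypes did not overlap in 2, Cdhr1 and Reln, against 34.1% of all clusters. For such a gene a two-sided exact permutation test gives p = 0.333, its minimum with 4 arrays. Nothing in the labels says that the arrays are separate litters or days, so p-values measure the spread between these arrays.

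Without Adar2 knockout replicate 2, the median log2 fold change of the 10 genes went from -0.36 to 0.06, and over all clusters it was 0.005 in both. In this fit 3 of the 10 were lower and 7 higher in the knockout. Log2 fold changes were 0.07 (SE 0.34) for S100a5, 0.11 (SE 0.15) for Scgn, -0.08 (SE 0.13) for Doc2g and 0.12 (SE 0.13) for Lbp. Cdhr1 stayed lower, at -0.40 (SE 0.10, unadjusted limma p 0.0356, adjusted p 0.858), the 1 gene of 10 with an unadjusted p below 0.05, against 4.86% of all clusters. No gene passed the adjusted threshold, as 0% of clusters did. Eomes and Tbx21 both had 0.30, with SEs of 0.14 and 0.10 and unadjusted limma p-values of 0.130 and 0.0620. The lone knockout array was assumed to vary like the wild-type arrays. Without Adar2 knockout replicate 1 instead, 5 of 10 had an unadjusted limma p below 0.05, against 5.33% of all clusters. That fit sets replicate 2 alone against wild type, the values by which the genes were chosen, and nothing is read from it.

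**Figure D4:**
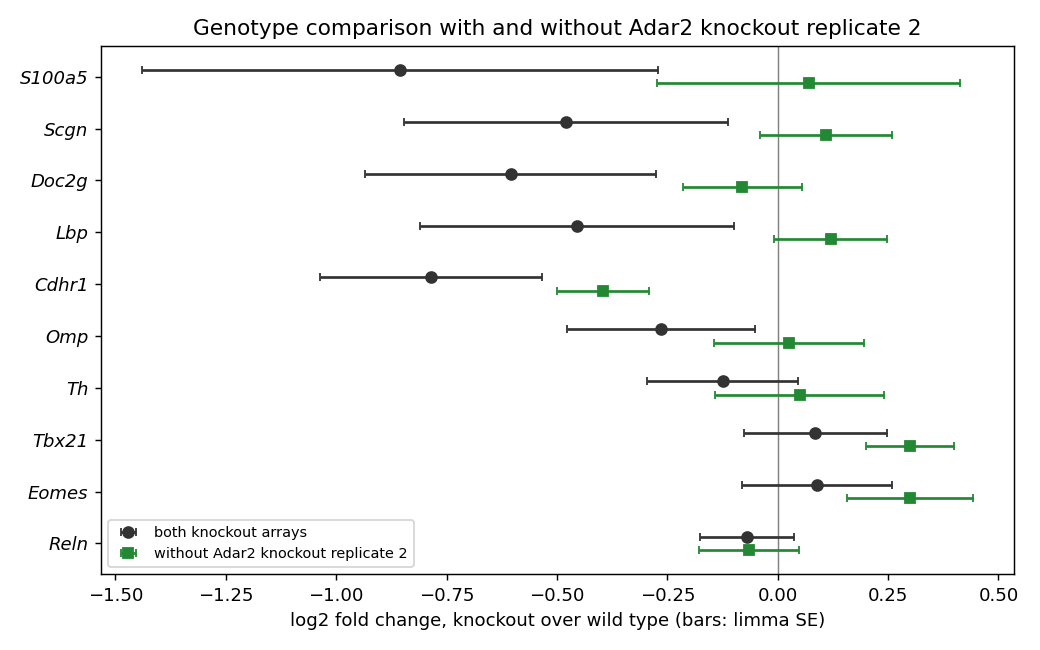
Log2 fold change of knockout over wild type (horizontal axis) for the 10 genes, with bars of the limma SE, from all 4 arrays (dark circles) and without Adar2 knockout replicate 2 (green squares). S100a5 moves from -0.86 to 0.07 and Cdhr1 from -0.79 to -0.40, while Reln stays at -0.07.

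Of the 51 other olfactory genes, none passed an adjusted p of 0.05 between the genotypes in limma (lowest value 0.834). Before adjustment, 5 were lower and 1 was higher in the knockout at p below 0.05, 11.8% beside 5.95% of all clusters. The 5 were Ccnd2 (log2 fold change -0.48, p 0.00855), Frzb (-0.47, p 0.0168), Dlx5 (-0.45, p 0.0355), Meis2 (-0.33, p 0.0416) and Sp9 (-0.33, p 0.0487). The higher one was Spp1 (0.40, p 0.0482). In the 7 lists of other regions 4 of 77 genes, 5.19%, had an unadjusted limma p below 0.05, all lower in the knockout. They were the cortical genes Fezf2 (-0.38, p 0.0127) and Neurod6 (-0.36, p 0.0462), the hippocampal Prox1 (-0.38, p 0.0141) and the striatal Drd1a (-0.32, p 0.0325). The cortex list had the lowest median log2 fold change of these 12 lists, -0.25, against -0.15 for bulb interneurons and for migrating neuroblasts.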

How the data were processed

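Brain RNA from 4 mice, 2 of each genotype, was hybridised to Affymetrix whole-transcript arrays. The authors deposited normalized log2 signals per transcript cluster, and the submitters' processing notes name Expression Console and RMA, without versions. RMA corrects background, quantile-normalizes and summarises probes, so differences between arrays in total signal are removed. Coordinates were taken from the deposited table, where the build is not given, and all 10 genes overlapped their RefSeq span in GRCm38.p6. Columns with the authors' averages, fold changes and p-values were not used.

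The 10 genes were found by symbol. The genes, gene lists and comparisons were chosen with earlier results of these data known, and the S100 family, neighbouring clusters and motifs were chosen after the values were seen. Lists used the cluster of highest mean signal per gene. Genotypes were compared with limma 3.58.1 in R 4.3.3 (lmFit, eBayes, two-sided, genotype alone) over 33793 clusters with Benjamini-Hochberg adjustment, checked on simulated data. Named genes were the 10 genes, Adarb1, 20 genes of like pattern and up to 4 of each list by size of difference. Genes outside this rule, such as Gad1, Gad2, Slc6a3, Cnga2, Meis2, Fezf2, Neurod6, Prox1, Drd1a and Capn5, were named after their values were seen. Some genes of the lists are not reported here by name. The number of arrays limits the precision. Same-numbered arrays did not deviate together (r = 0.052 across clusters), so no block was used. Python 3.11.15, pandas 2.3.3 and matplotlib 3.10.9 were used.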

Additional observations from a re-analysis of the deposited data

How the results depend on the processing

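The median difference of -0.80 for the 10 genes on Adar2 knockout replicate 2 was -0.82 after median centring, -0.81 after quantile normalization and -0.80 after cyclic loess, and -0.80 to -0.75 with 1 of the other arrays left out. The deposited values were already quantile-normalized, so the repeat normalizations could change little. The median difference was -0.68 against Adar2 knockout replicate 1 alone and -1.04 without Omp, the gene below the median signal. The number at least 1 below, a count whose alternatives were chosen after the data were seen, was 5 under each normalization and 4 to 5 with 1 other array left out. The 51 other olfactory genes had a median of -0.15 to -0.10. In counts added after the data were seen, Adar2 knockout replicate 2 was lowest for 35 of them and for 32 of 77 genes of other regions without Adar2 knockout replicate 1, against 31 and 15 with it. Between genotypes the number of the 10 with an unadjusted p below 0.05 was 1, and it was 0 with the replicate number as a block (5.01% of all clusters), 0 in the pooled-variance test without shrinkage (5.61%) and 0 to 5 with single arrays left out, namely 0 when either wild-type array was dropped (3.61% for replicate 1 and 4.89% for replicate 2) and 5 without Adar2 knockout replicate 1 (5.33%). No gene of the 10 passed an adjusted p of 0.05 in any of these fits, the replicate block included, while 15 clusters did in the pooled-variance test. Cdhr1 had p 0.0517 with the block and 0.183 in the pooled-variance test. Directions turned only with single arrays left out, where log2 fold changes ranged from -1.78 to 0.07 for S100a5, -1.07 to 0.11 for Scgn, -1.03 to 0.12 for Lbp, -0.30 to 0.05 for Th, -0.56 to 0.025 for Omp, -0.12 to 0.30 for Eomes and -0.13 to 0.30 for Tbx21. Of these, Eomes was -0.01 without wild type replicate 1 and Th 0.035 without wild type replicate 2. With 2 arrays a genotype, 1 array decides these values. The cause of the changes was not tested.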
